A study of Homo sapiens with 12 samples.

Results

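The genes described here encode the positive transcription elongation factor P-TEFb and the proteins that hold it back or deliver it: HEXIM1, LARP7, MEPCE, CDK9, CCNT1, CCNT2 and AFF4. They were chosen by name from the coding intervals of the deposited tables, with overlapping intervals of a gene counted once. The choice was made with earlier results of these data known. All 7 were found among 18651 coding genes, and all 7 passed the filter on low counts both in newly made RNA and in all RNA.

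P-TEFb is the kinase CDK9 bound to cyclin T1 (CCNT1) or cyclin T2 (CCNT2). It phosphorylates RNA polymerase II and the factors that pause it, and so lets a paused polymerase enter productive elongation. A share of P-TEFb is kept inactive on the noncoding RNA 7SK, where HEXIM1 inhibits the kinase, LARP7 protects the RNA's 3′ end and MEPCE caps its 5′ end. AFF4 is the scaffold of the super elongation complex, which brings active P-TEFb to genes. HEXIM1 RNA is known to rise in many cell types when P-TEFb is freed from 7SK.

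New RNA was measured by SLAM-seq in 22Rv1 cells, a line from a human prostate carcinoma, edited so that SF3B1, a core subunit of the splicing complex SF3b, carries C1111S. The groups, with 3 libraries each, were WX-02-23 (20 µM, 3 h), WX-02-43 (20 µM, 3 h), PladB (10 nM, 3 h) and the vehicle DMSO (0.1% v/v). For DMSO no duration is given in the labels, so it cannot be said here that it matched that of the compounds. All cells carried the substitution and all received 4-thiouridine (100 µM, 1 h), so no group had unedited SF3B1 and none lacked the label. The labels call WX-02-23 and WX-02-43, which carry code names only, stereoprobes. Pladienolide B, abbreviated PladB, inhibits SF3b. Whether the edited cells were 1 clone, and whether replicates were separate cultures, is not given in the sources used here, so p-values measure the spread between these libraries.

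After alkylation, 4-thiouridine in RNA is read as C in place of T, and reads holding such a change (T>C reads) were taken as new RNA. Each library had 12331520 to 21414824 reads on coding genes, of which 826780 to 2094108 were T>C reads. Levels below are CPM, the reads of a gene scaled to a common library size, either from T>C reads alone or from every read. The share of coding reads with T>C was 5.44% ± 0.191 in PladB and 9.45% ± 0.431 in DMSO (SD, n = 3 each). Luminal prostate markers were detected, with HOXB13 at 178 to 302 CPM and KRT8 at 317 to 562 CPM of all reads. KLK3 was the lowest of the 9 listed, at 4.23 to 17.5 CPM, and had 0 T>C reads in both stereoprobe groups. Of 10 markers of other cell types, KRT5, TP63 and COL1A2 had 0 reads in every library, and PTPRC, PECAM1 and KRT14 stayed under 1 CPM. ALB, a liver secretory gene, was detected in every library, at 110 to 300 CPM of all reads. SYP (17.1 to 43.3 CPM) and COL1A1 (2.14 to 10.8 CPM) were also detected in every library, and CHGA stood at 0 to 7.94 CPM. ALB gave most of the summed CPM of T>C reads over that list, which was 1413 to 1934 in PladB, 398 to 631 in WX-02-23 and 507 to 679 in WX-02-43, against 503 to 669 in DMSO. The part of this difference in the results below was not tested.

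The windows of 250 bases before the annotated start of 3 genes are shown. These are the members whose T>C reads passed the count test described below after PladB, HEXIM1 near its threshold. They are HEXIM1 (chr17:45148225-45148474, plus strand), CCNT2 (chr2:134918572-134918821, plus strand) and AFF4 (chr5:132963635-132963884, minus strand), taken from RefSeq on GRCh38.p14. All 7 members matched that table by symbol. Capitals mark every match, on either strand, to the letters TATAAA of a TATA box, CCAAT of a CCAAT box and GGGCGG of a GC box, and none of these matches overlap.
HEXIM1: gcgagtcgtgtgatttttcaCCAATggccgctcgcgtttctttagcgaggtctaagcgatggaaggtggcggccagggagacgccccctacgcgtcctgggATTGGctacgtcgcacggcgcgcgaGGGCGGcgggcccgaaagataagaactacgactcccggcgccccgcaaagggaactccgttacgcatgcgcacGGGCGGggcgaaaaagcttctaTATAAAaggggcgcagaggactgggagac
CCNT2: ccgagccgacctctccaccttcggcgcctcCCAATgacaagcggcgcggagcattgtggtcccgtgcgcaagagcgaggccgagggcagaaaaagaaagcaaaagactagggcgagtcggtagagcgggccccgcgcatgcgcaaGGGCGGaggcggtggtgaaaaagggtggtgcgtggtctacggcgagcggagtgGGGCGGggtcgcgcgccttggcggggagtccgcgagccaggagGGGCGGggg
AFF4: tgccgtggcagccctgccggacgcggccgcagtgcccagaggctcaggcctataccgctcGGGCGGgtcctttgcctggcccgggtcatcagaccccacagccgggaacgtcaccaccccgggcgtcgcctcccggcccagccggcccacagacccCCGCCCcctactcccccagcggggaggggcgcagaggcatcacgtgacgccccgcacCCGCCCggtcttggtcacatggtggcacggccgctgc

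The HEXIM1 window held 1 TATAAA, beginning 29 bases before the start, with 2 CCAAT and 2 GGGCGG matches. The CCNT2 window held 1 CCAAT and 3 GGGCGG matches, and the AFF4 window held 3 GGGCGG matches. TATAAA occurred in no window of the other 6 members. In 35116 windows of this length, TATAAA was found in 10.7%, CCAAT in 32.0% and GGGCGG in 42.6%. A match of letters is a description and not evidence of a binding site.

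The counted intervals were 3′ UTRs in hg19, so each value reports reads at the 3′ end of a transcript. HEXIM1 was read over chr17:43227638-43229468 (1831 bases, plus strand), in the gene's 1 exon. LARP7 was read over chr4:113578484-113578748, MEPCE over chr7:100031178-100031749 and CDK9 over chr9:130551823-130553052, all on the plus strand. CCNT1 was read over chr12:49082241-49089599 on the minus strand, which contains a shorter deposited interval, and CCNT2 over chr2:135712119-135716915 on the plus strand. AFF4 was read over chr5:132211071-132216750 on the minus strand, in exon 21 of 21. The matched LARP7, MEPCE and CDK9 transcripts have 13, 5 and 7 exons in GENCODE 29, and those of the cyclins 8 to 10. HEXIM1 was thus the only member read from a gene of a single exon. None of these intervals overlapped that of another gene, and multimapping reads were at most 1.17% of a member's reads (CCNT2).

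After PladB, 3 of the 7 members were called in new RNA, in different directions: HEXIM1 higher, CCNT2 and AFF4 lower. These 3 are 42.9% of the members, and over all 10722 genes tested 10.6% were called against DMSO, 4.73% higher and 5.90% lower. Because the members were chosen with earlier results of these data known, these percentages are no test of the set. The HEXIM1 call was lost in 8 alternative settings and the CCNT2 call in 1, while the AFF4 call was kept in all. Because libraries were scaled on their T>C reads, each change is measured against the bulk of new RNA, whose median gene stood at -0.36. A call is an adjusted p under 0.05 in edgeR's quasi-likelihood test with Benjamini-Hochberg adjustment over all genes tested. In these bulk samples, fewer cells holding a gene's RNA and less of that RNA per cell cannot be told apart.

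HEXIM1, the inhibitor of the kinase on 7SK, had 325, 273 and 418 CPM of T>C reads in PladB, against 92.2, 149 and 226 CPM in DMSO. All PladB libraries lay above all DMSO libraries. The means were 339 ± 73.5 CPM in PladB and 156 ± 67.3 CPM in DMSO (SD, n = 3 each). The log2 change was 1.12 (SE 0.37, 95% interval 0.38 to 1.86, adjusted p = 0.0413). The call sat near the threshold: it was lost without PladB replicate 1 (adjusted p = 0.0604) or 3 (0.146) and without DMSO replicate 1 (0.215) or 2 (0.113). It was also lost when T>C reads were scaled by all reads, where HEXIM1 stood at 0.32 (adjusted p = 0.588) and the median gene at -1.15. It was lost as well with RLE size factors (0.0564), with the plain sum over intervals (0.0792) and when PladB and DMSO alone were fitted (0.0846). Every alternative kept the positive sign.

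In all reads HEXIM1 stood at 64.5, 69.6 and 69.0 CPM in PladB, against 67.6, 70.9 and 87.6 CPM in DMSO. The groups overlapped, and the log2 change was -0.15 (95% interval -0.50 to 0.19, adjusted p = 0.556). The rise in T>C reads, measured against the bulk of new RNA and called near the threshold, came without a called change in all RNA of the gene.

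MEPCE, the capping enzyme of 7SK RNA, was called lower in all reads after PladB and was not called in T>C reads. Its all-read level was 27.1, 21.6 and 24.4 CPM in PladB, against 81.2, 77.6 and 75.2 CPM in DMSO, and the groups lay far apart. The log2 change of -1.68 (SE 0.17, adjusted p = 1.26e-09) held in every alternative. Over all 13178 genes tested in all reads, 30.1% were called after PladB, 13.9% higher and 16.3% lower. The 2 called members, MEPCE and AFF4, are 28.6% of 7, near that background. In T>C reads MEPCE had 103, 12.03 and 109 CPM in PladB, against 132, 169 and 99.7 CPM in DMSO. The groups overlapped, and replicate 2 of PladB was the low one. The log2 change was -0.83 (95% interval -1.87 to 0.20, adjusted p = 0.327). It was -0.33 without PladB replicate 2, and -1.63 with a call (adjusted p = 0.0237) when scaled by all reads.

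LARP7, which binds the 3′ end of 7SK RNA, had few T>C reads, from 2 to 69 per library. It stood at 13.9, 68.2 and 13.8 CPM of T>C reads in PladB, against 21.3, 48.3 and 24.9 CPM in DMSO. The PladB libraries fell on both sides of DMSO, and the log2 change of 0.02 had an interval of -2.45 to 2.49 (adjusted p = 0.9997). In all reads LARP7 had 16.3, 15.8 and 24.3 CPM in PladB, against 30.4, 27.7 and 21.2 CPM in DMSO. The groups overlapped through 1 library of each, and the log2 change was -0.49 (95% interval -1.04 to 0.06, adjusted p = 0.182).

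Among the P-TEFb subunits, CCNT2 was called in new RNA, and CCNT1 and CDK9 were not. CCNT2 had 11.9, 0 and 20.8 CPM of T>C reads in PladB, against 101, 129 and 87.9 CPM in DMSO. The 0 allows up to 4.01 CPM, taken as 3 counts in that library. The groups did not overlap, and the log2 change was -3.28 (SE 0.80, adjusted p = 0.00493), or -2.71 without the library at 0 (adjusted p = 0.0068). Without PladB replicate 3 it was -4.06. The call was lost when PladB and DMSO alone were fitted (adjusted p = 0.0604). In all reads CCNT2 was 16.6, 3.09 and 23.9 CPM in PladB, against 19.6, 27.4 and 23.1 CPM in DMSO. Replicate 2 of PladB again stood lowest, and the log2 change was -0.68 (95% interval -1.4997 to 0.14, adjusted p = 0.217). It was -0.21 without that replicate, and -1.24 with a call (adjusted p = 0.0269) without PladB replicate 3.

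CCNT1, the other cyclin partner of CDK9, had 568, 269 and 551 CPM of T>C reads in PladB, against 512, 677 and 655 CPM in DMSO. The groups overlapped, and replicate 2 of PladB was the lowest of all 12 libraries. The log2 change was -0.41 (95% interval -0.87 to 0.05, adjusted p = 0.271), and -1.20 with a call (adjusted p = 0.000268) when scaled by all reads. In all reads CCNT1 had 194, 208 and 199 CPM in PladB, against 169, 195 and 194 CPM in DMSO. These overlapped, with a log2 change of 0.11 (95% interval -0.14 to 0.36, adjusted p = 0.566). Whether the 2 cyclins differed in their response was not tested.

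CDK9, the kinase, had 60.5, 0 and 41.5 CPM of T>C reads in PladB, against 28.8, 18.9 and 23.7 CPM in DMSO. Its PladB libraries lay on both sides of DMSO. The log2 change of 0.52 (95% interval -1.74 to 2.77, adjusted p = 0.850) left a change within that interval unresolved, at 0 to 100 T>C reads per library. In all reads CDK9 had 10.6, 7.96 and 6.99 CPM in PladB, against 8.33, 14.0 and 16.1 CPM in DMSO. The groups overlapped, and the log2 change was -0.58 (95% interval -1.39 to 0.22, adjusted p = 0.293). In T>C reads, PladB replicate 2 was low in MEPCE, CCNT1, CCNT2 and CDK9 and high in LARP7. It had the fewest T>C reads on coding genes of all libraries, 826780, close to the 843378 of PladB replicate 3. Whether depth had a part in its values was not tested.

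AFF4, the scaffold of the super elongation complex, had 0 T>C reads in each PladB library, against 107, 27 and 35 T>C reads in DMSO. These DMSO counts correspond to 61.6, 18.9 and 21.8 CPM, and every one lay above PladB. The DMSO mean was 34.1 ± 23.9 CPM (SD, n = 3). Measured from that mean to a floor of 3 counts per library, new AFF4 RNA was at least 9.19-fold lower in PladB. This bound leaves out the spread of the DMSO libraries. The fall was called in edgeR (adjusted p = 0.00355), and the call held in every alternative. DMSO replicate 1 carried most of the DMSO reads, and without it the bound was at least 5.48-fold lower. In all reads AFF4 was 13.9, 11.4 and 17.9 CPM in PladB, against 40.4, 43.3 and 43.6 CPM in DMSO. The groups did not overlap, and the log2 change was -1.56 (SE 0.24, adjusted p = 2.30e-06). AFF4 was the only member called in both measures.

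**Figure D1:**
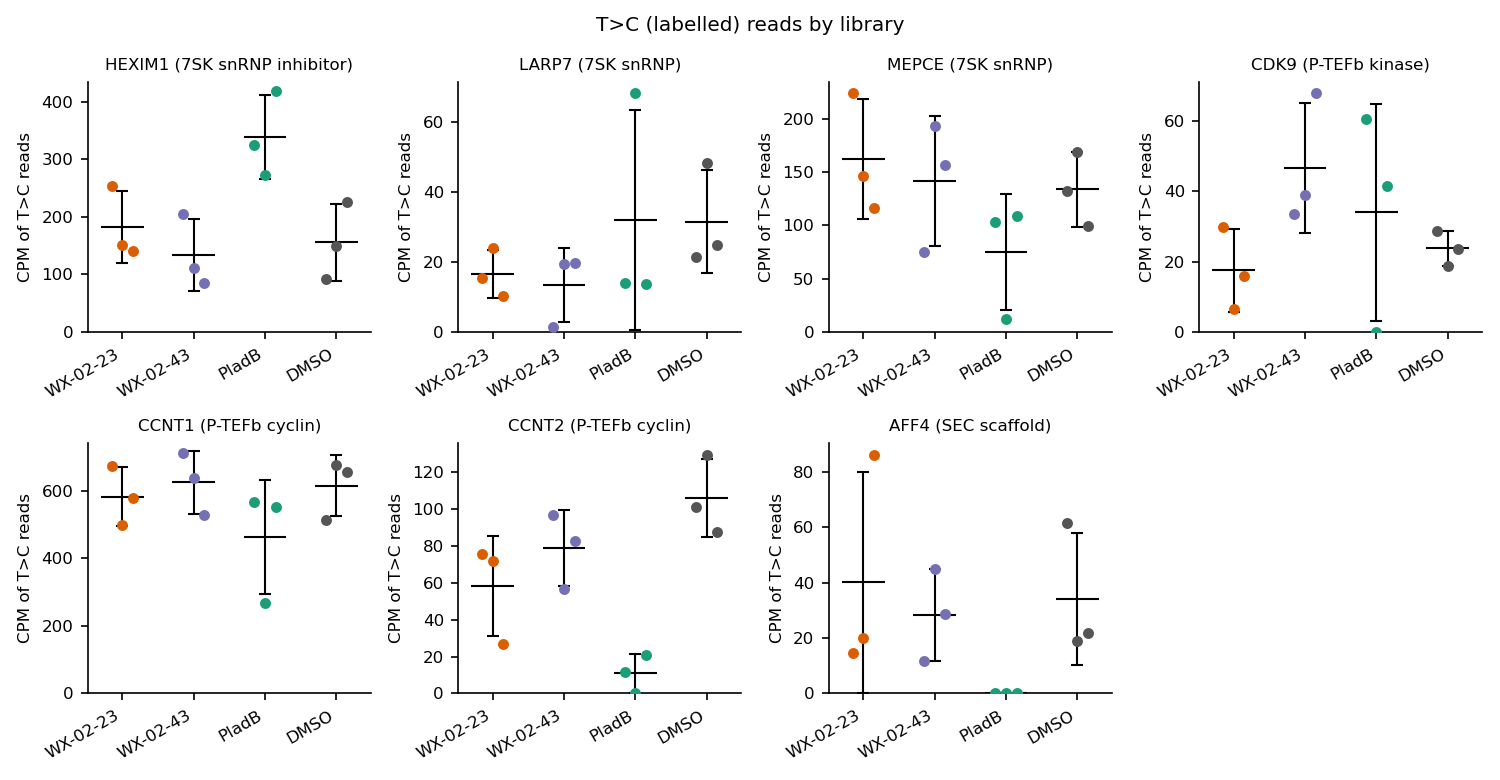
CPM of T>C reads (vertical axis, linear from 0) for each gene by group, with 1 point per library, the mean as a horizontal line and the SD as bars (n = 3; SD bars are drawn down to 0 at most). HEXIM1 lies above DMSO in all 3 PladB libraries, CCNT2 below, and AFF4 at 0.

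**Figure D2:**
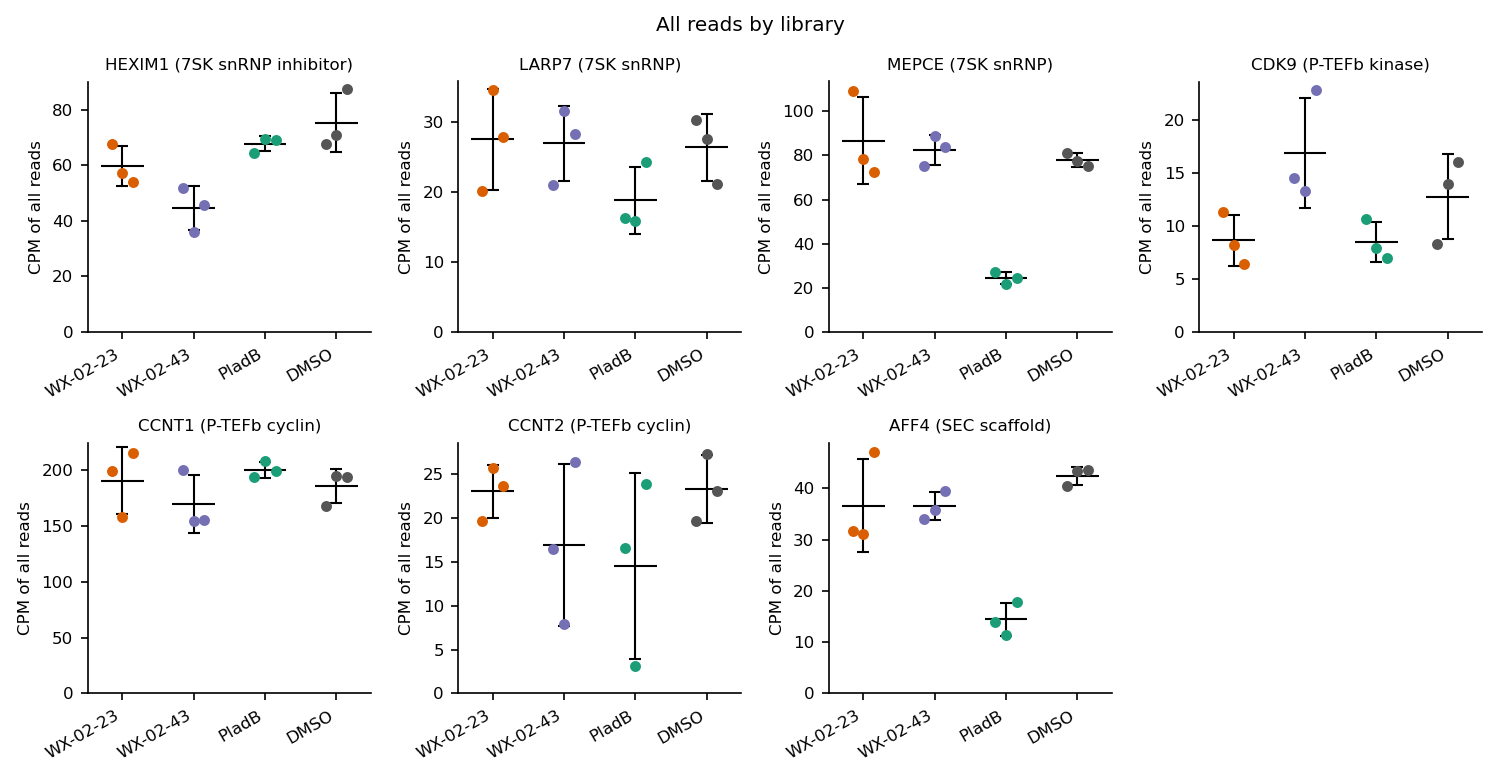
CPM of all reads (vertical axis, linear from 0) for each gene by group, with 1 point per library, the mean as a horizontal line and the SD as bars (n = 3). MEPCE and AFF4 lie below DMSO in all 3 PladB libraries, and HEXIM1 lies below DMSO in all 3 WX-02-43 libraries.

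The stereoprobes left new RNA of these genes without a called change. In T>C reads 0 of 7 members were called for WX-02-23, for WX-02-43 or between them. At an unadjusted p under 0.05 there were also 0 in edgeR, and DESeq2 made 0 calls. That unadjusted threshold was passed by 4.52% of all genes for WX-02-23, 3.81% for WX-02-43 and 2.85% between them. Over all genes, 0.224% were called for WX-02-23, 0.0933% for WX-02-43 and 0.0466% between them, so few calls are the background for any gene.

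HEXIM1 had 254, 152 and 140 CPM of T>C reads in WX-02-23 and 205, 111 and 85.5 CPM in WX-02-43, against 92.2, 149 and 226 CPM in DMSO. All groups overlapped. The log2 change was 0.23 for WX-02-23 (95% interval -0.51 to 0.96) and -0.22 for WX-02-43 (-0.95 to 0.52), with an adjusted p of 1 for both. The DMSO libraries alone spread over more than either difference, and the interval for WX-02-23 still contains 0.96.

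CCNT1 had 672, 497 and 578 CPM of T>C reads in WX-02-23 and 713, 637 and 527 CPM in WX-02-43, against 512, 677 and 655 CPM in DMSO. With 201 to 1434 T>C reads per library, it gave the narrowest intervals of the 7 members. The log2 change was -0.08 (95% interval -0.54 to 0.38) in WX-02-23 and 0.03 (-0.43 to 0.48) in WX-02-43. For MEPCE it was 0.28 (-0.73 to 1.29) in WX-02-23 and 0.08 (-0.93 to 1.10) in WX-02-43. The adjusted p of all these changes was 1.

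For the low-count members the groups sometimes separated without a call. CCNT2 had 75.5, 72.1 and 26.8 CPM of T>C reads in WX-02-23, all below DMSO, and its log2 change was -0.87 (95% interval -2.31 to 0.57, adjusted p = 1). CDK9 had 33.5, 39.0 and 67.9 CPM of T>C reads in WX-02-43, all above DMSO, with a log2 change of 0.97 (-1.28 to 3.23, adjusted p = 1). LARP7 had 1.31, 19.5 and 19.7 CPM of T>C reads in WX-02-43, all below DMSO, with a log2 change of -1.22 (-3.72 to 1.29, adjusted p = 1). AFF4 overlapped DMSO for both compounds, at 14.5, 19.9 and 86.0 CPM in WX-02-23 and 11.8, 45.0 and 28.5 CPM in WX-02-43.

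In all reads 0 of 7 members were called in edgeR for WX-02-23, where 0.698% of all genes were called, and for WX-02-43, where 0.167% were. WX-02-23 gave 0 members at an unadjusted p under 0.05, and 0 in DESeq2. WX-02-43 gave 1 member, HEXIM1, by both of these criteria. The unadjusted threshold in edgeR was passed by 8.70% of all genes for WX-02-23 and 5.85% for WX-02-43. DESeq2 called 161 and 55 of 18651 genes. HEXIM1 had 51.7, 36.1 and 45.9 CPM of all reads in WX-02-43, against 67.6, 70.9 and 87.6 CPM in DMSO. Every WX-02-43 library lay below every DMSO library. The log2 change was -0.76 (SE 0.17, 95% interval -1.11 to -0.41), with an adjusted p of 0.0506 in edgeR and 0.00630 in DESeq2.

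The adjusted p for HEXIM1 in WX-02-43 thus lay at the threshold, and the direction did not change in any alternative. Leaving out WX-02-43 replicate 2, the lowest library, gave -0.63 with an adjusted p of 0.497, and leaving out DMSO replicate 1 gave -0.84 with a call (0.0457). In WX-02-23, HEXIM1 had 67.8, 57.1 and 54.1 CPM of all reads. These overlapped DMSO, and the log2 change was -0.34 (95% interval -0.68 to 0.01, adjusted p = 0.611). AFF4 had 34.1, 35.8 and 39.4 CPM of all reads in WX-02-43, below all DMSO libraries, but its log2 change of -0.22 (95% interval -0.69 to 0.25) was not called (adjusted p = 0.9995).

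WX-02-23 and WX-02-43 were given at the same dose for the same time. Between them, 0 of 7 members were called in all reads in edgeR, where 0.152% of all genes were, and DESeq2 called 0. There were 2 with an unadjusted p under 0.05 in edgeR, a threshold that 5.51% of all genes passed. HEXIM1 averaged 59.7 ± 7.16 CPM in WX-02-23 and 44.5 ± 7.86 CPM in WX-02-43 (SD, n = 3 each), without overlap. Its log2 difference was 0.42 (95% interval 0.07 to 0.77, adjusted p = 0.809). CDK9 averaged 8.65 ± 2.44 CPM in WX-02-23 and 16.9 ± 5.19 CPM in WX-02-43, again without overlap. Its log2 difference was -0.96 (95% interval -1.77 to -0.15, adjusted p = 0.820).

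The other 5 members differed between the stereoprobes by log2 values of 0.01 (AFF4) to 0.44 (CCNT2) in all reads, none of them called. In T>C reads CDK9 also lay lower in all WX-02-23 libraries, at 29.996, 6.63 and 15.9 CPM, with a log2 difference of -1.41 (95% interval -3.68 to 0.87, adjusted p = 1). HEXIM1 differed by 0.44 in T>C reads (95% interval -0.29 to 1.18, adjusted p = 1). These intervals are wide, and a missing call does not show that the compounds act alike on these genes.

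**Figure D3:**
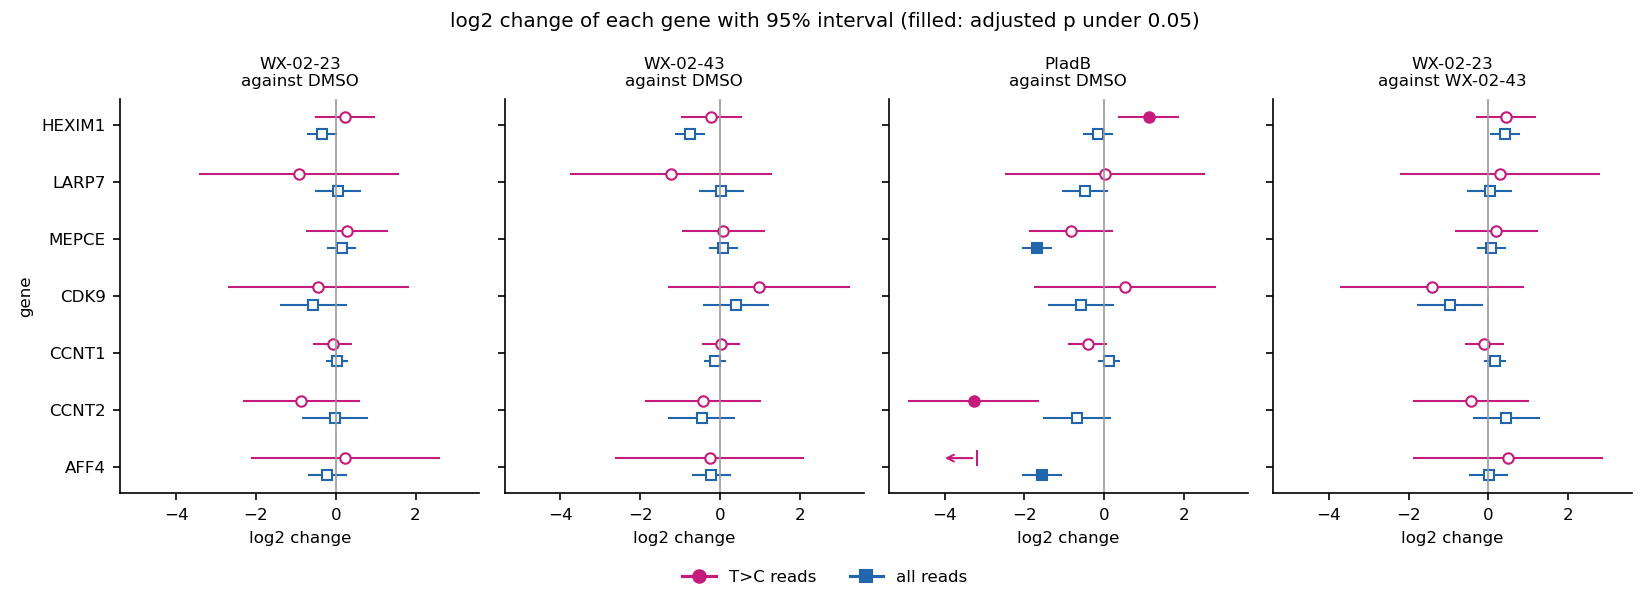
log2 change of each gene (horizontal axis) in the 4 comparisons, with T>C reads as circles, all reads as squares and 95% intervals as lines; filled symbols have an adjusted p under 0.05. AFF4 T>C reads after PladB are drawn as an arrow from the bound, at a log2 value of -3.20. Filled symbols appear only in the PladB panel.

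The share of a gene's reads with T>C relates its new RNA to all of its RNA and does not depend on scaling between libraries. It was compared for the 7 members in 4 comparisons by exact two-sided permutation tests, adjusted over these 28. The smallest p that 3 libraries against 3 allow is 0.1, so none could pass the threshold. After PladB the shares of CCNT1, CCNT2 and AFF4 did not overlap those in DMSO, while those of HEXIM1, LARP7, MEPCE and CDK9 did. The share of all coding genes together did not overlap DMSO after PladB either. How many single genes lay apart in any comparison was not counted, so there is no background for the members.

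CCNT2 had 4.03%, 0% and 4.56% of its reads with T>C in PladB, against 50.4%, 43.3% and 36.4% in DMSO. CCNT1 had 16.4%, 7.11% and 14.5% in PladB, against 29.7%, 31.7% and 32.3% in DMSO. AFF4 had 0 of 651 reads in PladB, against 14.9%, 3.99% and 4.78% in DMSO. By counting error alone, with reads pooled over the PladB libraries, the 0 allows a share of up to 0.461%. That bound leaves out the spread between libraries, so the share it allows is too low where libraries differ. All 3 genes lay lower in every PladB library, each with an exact permutation p of 0.1 (adjusted p = 0.56). The mean share of CCNT1 in PladB was 0.406 of that in DMSO and that of CCNT2 was 0.0660 of it, beside 0.576 for all coding genes together.

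The mean share of HEXIM1 did not follow that fall, nor did those of LARP7 (ratio 0.924), MEPCE (0.988) and CDK9 (1.05). The LARP7 mean rested on PladB replicate 2, at 23.7%, beside 4.78% and 2.99% in replicates 1 and 3. For CDK9, replicate 2 was at 0%, beside 31.9% and 31.25%. The HEXIM1 share was 28.3%, 21.6% and 31.9% in PladB, against 13.3%, 19.2% and 24.7% in DMSO, with 1 PladB library inside the DMSO range. The means were 27.3% ± 5.202 in PladB and 19.1% ± 5.70 in DMSO (SD, n = 3 each), a ratio of 1.43 (exact permutation p = 0.2, adjusted p = 0.56). MEPCE, whose all-read level fell, had shares of 21.4%, 3.07% and 23.6% in PladB, against 15.9%, 20.0% and 12.7% in DMSO. PladB replicates 1 and 3 lay above every DMSO library and replicate 2 below all of them, so the close means, 16.0% ± 11.3 in PladB and 16.2% ± 3.65 in DMSO, rest on replicate 2 (exact permutation p = 1). The difference between HEXIM1 and other genes in this ratio was not tested.

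Counting converted T positions instead of reads separated HEXIM1 more. Of the covered T positions of HEXIM1, 1.96%, 1.53% and 1.86% were converted in PladB, against 0.742%, 1.12% and 1.46% in DMSO. The PladB values lay above all DMSO values, while over all coding genes 0.318% of T positions were converted in PladB and 0.706% in DMSO. The WX-02-23 libraries, at 2.47%, 2.09% and 2.01%, also lay above DMSO, and the WX-02-43 libraries, at 3.26%, 2.80% and 1.38%, overlapped it. Over all coding genes this percentage was likewise above DMSO in every stereoprobe library, at 0.811% ± 0.0156 in WX-02-23 and 0.913% ± 0.0364 in WX-02-43, against 0.706% ± 0.0245 in DMSO (SD, n = 3 each). Whether HEXIM1 exceeded that general difference was not tested. By reads, the HEXIM1 share was 28.5% ± 6.40 in WX-02-23 and 27.0% ± 10.5 in WX-02-43, and both overlapped DMSO (exact permutation p = 0.2 and 0.4).

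Among shares of reads in the stereoprobe groups, only those of LARP7 in WX-02-43 lay apart from DMSO. They were 0.587%, 5.42% and 6.16% in WX-02-43, against 6.85%, 16.0% and 11.3% in DMSO (exact permutation p = 0.1, adjusted p = 0.56). By converted T positions LARP7 overlapped DMSO, at 0.214%, 1.03% and 0.201% in WX-02-43 against 0.579%, 1.73% and 0.603% in DMSO. By that measure CCNT1 lay apart instead, at 4.29%, 3.87% and 3.196% in WX-02-43 against 2.62%, 2.76% and 2.65% in DMSO, in the direction of all coding genes together. CCNT2 averaged 24.5% ± 12.9 in WX-02-23 and 48.7% ± 18.5 in WX-02-43, against 43.4% ± 6.998 in DMSO, and all of these groups overlapped. In DMSO the CCNT2 share lay above that of all coding genes in every library, and so did those of HEXIM1, CCNT1, MEPCE and CDK9. LARP7 and AFF4 lay on both sides of it. These shares were not adjusted for the number of T positions a read covers.

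**Figure D4:**
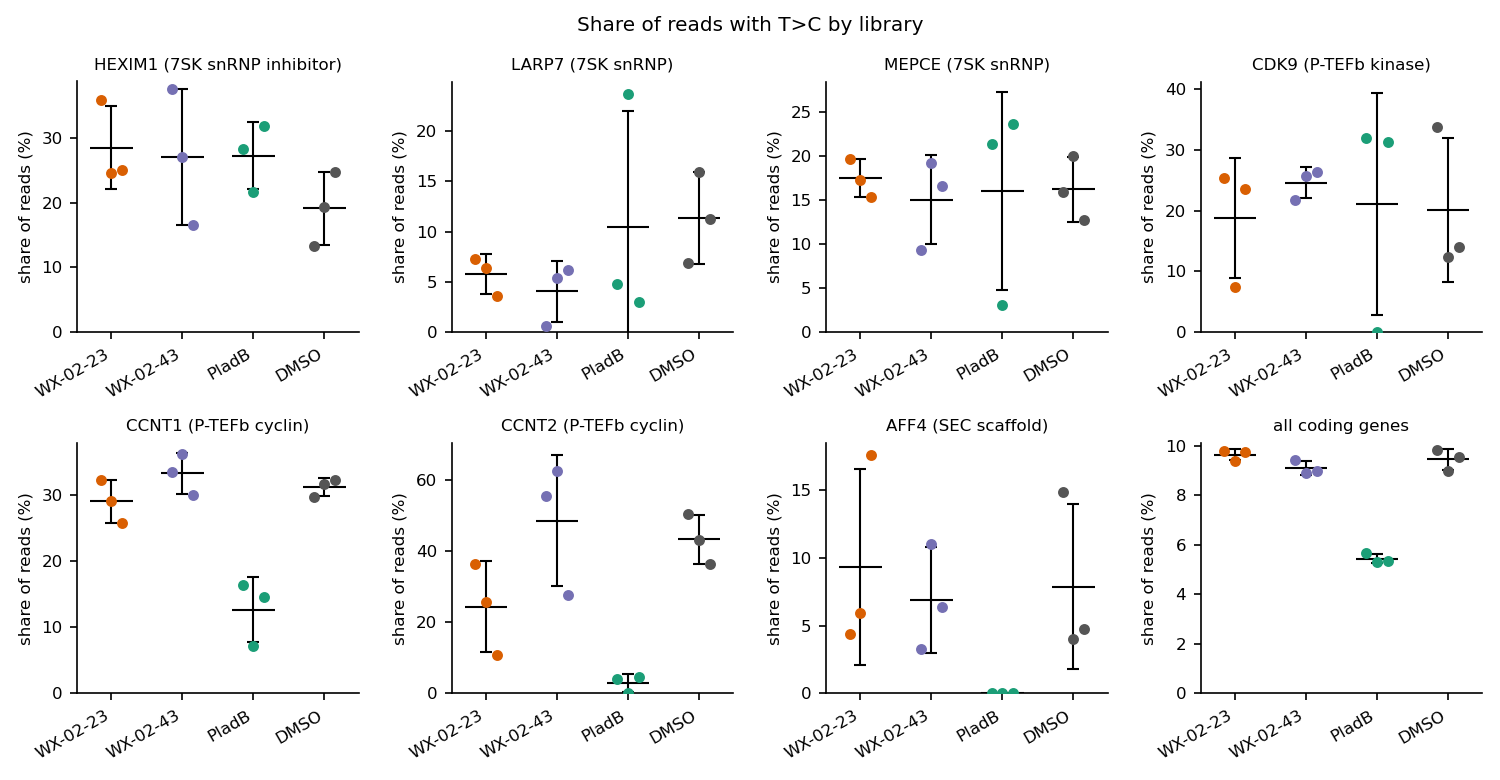
Share of reads with T>C (vertical axis, percent, linear from 0) for each gene and for all coding genes together, with 1 point per library, the mean as a horizontal line and the SD as bars (n = 3; SD bars are drawn down to 0 at most). CCNT1, CCNT2 and AFF4 lie below DMSO in all 3 PladB libraries, as all coding genes together do, and HEXIM1, LARP7, MEPCE and CDK9 do not.

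CCNT1 has 2 deposited intervals, of which the shorter lies within the longer one. The 2784 bases outside the shorter interval held 9.43% ± 1.69 of CCNT1 reads in PladB and 11.8% ± 1.78 in DMSO (SD, n = 3 each), with 7.68% ± 2.03 in WX-02-43. The T>C share there varied widely in DMSO, at 71.2%, 16.5% and 50.3%. Within the shorter interval the T>C share was 11.9% ± 5.27 in PladB and 29.1% ± 4.53 in DMSO (exact permutation p = 0.1), without overlap between the groups. The lower CCNT1 share after PladB was therefore present without the outer bases.

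Other genes of the pathway were read from 4 lists with 42 genes: the rest of the super elongation complex, factors that bind or release P-TEFb, pausing and elongation factors, and other transcription kinases. For the stereoprobes and between them, edgeR called 0 of 41 tested genes in T>C reads and 0 of 42 in all reads, and DESeq2 called 0 as well. In T>C reads 1 of them, CDK12 in WX-02-43, had an unadjusted p under 0.05. In all reads there were 3 for WX-02-23, 0 for WX-02-43 and 1 between them. Of all genes, 3.81% passed this edgeR threshold for WX-02-43 in T>C reads. In all reads 8.70% passed it for WX-02-23, 5.85% for WX-02-43 and 5.51% between them.

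After PladB, 5 of 41 genes were called in T>C reads (12.2%, against 10.6% of all genes), 2 higher and 3 lower. Higher were BRD2, a BET bromodomain protein, with a log2 change of 1.08 (adjusted p = 0.00465), and MED26, a Mediator subunit that recruits the super elongation complex, with 1.40 (adjusted p = 0.0391). Lower were AFF3, a relative of AFF4, with -3.38 (adjusted p = 1.02e-07), CDK13, a cyclin K-dependent kinase of RNA polymerase II, with -2.99 (adjusted p = 0.00741), and BRD3, with -1.24 (adjusted p = 0.0287). BRD2 had 519, 536 and 751 CPM of T>C reads in PladB, against 197, 395 and 262 CPM in DMSO, so it lay apart from DMSO as HEXIM1 did.

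Scaling by all reads ended the calls of BRD2 (0.29, adjusted p = 0.469) and MED26 (0.61, adjusted p = 0.391). The MED26 call was also lost when the 2 groups alone were fitted (adjusted p = 0.0617), by plain sums over intervals (0.0576), and without PladB replicate 2 (adjusted p = 0.150) or any DMSO replicate (0.0515 to 0.141). The value of BRD3 was -2.03 without PladB replicate 2, its highest PladB library, and its call was lost when the 2 groups alone were fitted (0.114), by plain sums (0.0658), and without PladB replicate 1 (0.105) or 3 (0.152) or any DMSO replicate (0.0584 to 0.0617). The CDK13 value was -3.78 without PladB replicate 3, and its call was lost when the 2 groups alone were fitted (0.0554). AFF3 stood at -4.02 without PladB replicate 2.

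All reads gave 16 calls among the 42 genes after PladB (38.1%, against 30.1% of all genes), with 5 higher and 11 lower, while DESeq2 called 14. Counts by list are to be read against the 13.9% of all genes called higher and 16.3% called lower. None of the 10 super elongation complex genes rose and 3 fell, among them AFF3 with a log2 change of -1.75 and MLLT3, a chromatin reader of that complex, with -1.15. Of the 9 binding and release factors 2 rose and 1 fell. MED26 was 52.3 ± 11.2 CPM in PladB and 9.78 ± 2.98 CPM in DMSO (SD, n = 3 each), a log2 change of 2.42 (adjusted p = 1.56e-07), while BRD3 stood at -0.83.

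Of the 17 pausing and elongation factors 3 rose and 4 fell, and DESeq2 called 5 of these 17. NELFA, a subunit of the negative elongation factor, changed by -1.52 and IWS1, a partner of the elongation factor SPT6, by -2.44, while SUPT4H1, a subunit of DSIF, changed by 0.58. Of the 6 other kinase genes 0 rose and 3 fell, CDK13 the most clearly with -2.22 (adjusted p = 3.32e-08). The median log2 change over the 42 genes was -0.16, beside -0.07 over all genes tested. Genes of these lists thus moved in both directions.

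The genes whose T>C pattern over the 12 libraries was most like that of HEXIM1, by Pearson's r of log2(CPM + 1), were CLDN7 (r = 0.898), CDKN2A (0.884), ARF5 (0.871), USP5 (0.869) and PTMS (0.854). In all reads they were NME4 (0.902), MISP (0.877), HOXA7 (0.854), POMGNT2 (0.851) and ZNF503 (0.832). No other member was among them: in T>C reads r with HEXIM1 ran from -0.834 for AFF4 to -0.0820 for LARP7, and in all reads from -0.458 for LARP7 to 0.561 for CCNT1. These values describe 12 libraries that share 4 groups and their depths, among 10722 genes in T>C reads and 13178 in all reads.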

How the data were processed

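Per the file headers, reads were counted with slamdunk 0.4.3. The submitters' processing notes name hg19. The deposited tables give read counts and T>C read counts per 3′ UTR interval, and the authors' CPM, which gave library totals of 24670716 to 42190854 reads. The authors' conversion rate, a fraction, divides converted by covered T positions.

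Of 29255 intervals, 23086 were coding. Of 45 names turned into dates 44 were restored, and 24 chromosome Y copies of pseudoautosomal intervals were dropped. Of overlapping intervals of a gene the longest was kept, and plain sums were an alternative. 7SK RNA was not analysed here.

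The count test was that of edgeR 4.0.16, run in R 4.3.3 (TMM, filterByExpr, quasi-likelihood fit to all 12 libraries, group as the only term, Benjamini-Hochberg adjustment over all genes), and with DESeq2 1.42.0 as an alternative. CPM are on the TMM scale. Labelled shares were compared by exact permutation tests. Libraries without 4-thiouridine were not analysed here, so T>C reads from errors were not subtracted. Reads carry no molecular identifiers, and floors cover counting error only.

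All 7 members are named. From the wider lists, called genes are named, at most 8 per comparison by adjusted p, and for likeness the 5 highest r. Members and lists were chosen with earlier results of these data known.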

Additional observations from a re-analysis of the deposited data

How the results depend on the processing

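Low T>C counts of CDK9, LARP7, CCNT2 and AFF4, 3 libraries per group and the choice of scaling limit the precision. MEPCE and AFF4 in all reads and AFF4 in T>C reads after PladB kept their calls in every alternative. Of the alternatives for members and list genes, 859 values kept sign and call, 25 lost a call, 9 gained one and 54 changed sign, none of these with a call. The cause of these changes was not tested. Deviations of same-numbered libraries correlated at -0.0320 to 0.0258, so no pairing by replicate number was seen. With 3 libraries per group, this cannot show that the libraries were unpaired. With the replicate block the member counts were 3 for PladB in T>C reads and 2 in all reads, and the block moved the PladB calls in T>C reads to 1089 genes. Fitting PladB and DMSO alone left 1 called member in T>C reads. In all reads WX-02-43 gave 1 called member, HEXIM1, with RLE size factors, DESeq2, no low-count filter, the replicate block and multimapping reads subtracted, and 0 to 1 with a library left out. The number of members whose labelled shares did not overlap ran, with a library left out, from 0 to 3 for WX-02-23, from 1 to 4 for WX-02-43, from 3 to 6 for PladB and from 0 to 2 between the stereoprobes, and by converted T positions it was 1 for WX-02-23 (HEXIM1) and 1 for WX-02-43 (CCNT1 in place of LARP7). The same count was not made over all genes, so these numbers describe the members only. Sign changes were seen in uncalled log2 values. In T>C reads against DMSO with a library left out, WX-02-23 gave -0.092 to 0.60 for HEXIM1, -0.029 to 0.48 for MEPCE, -0.19 to 0.025 for CCNT1 and -0.99 to 0.98 for AFF4. WX-02-43 gave -0.67 to 0.15 for HEXIM1, -0.21 to 0.39 for MEPCE, -0.089 to 0.14 for CCNT1 and -0.76 to 0.48 for AFF4. PladB gave -1.18 to 0.46 for LARP7 and -0.20 to 1.10 for CDK9. Between the stereoprobes the ranges were -0.24 to 0.67 for LARP7, -0.11 to 0.49 for MEPCE, -0.22 to 0.0022 for CCNT1 and -0.72 to 0.99 for AFF4. In all reads WX-02-23 gave -0.14 to 0.24 for LARP7, -0.0497 to 0.27 for MEPCE, -0.059 to 0.15 for CCNT1 and -0.13 to 0.11 for CCNT2, and WX-02-43 gave -0.10 to 0.18 for LARP7. Between the stereoprobes they were -0.17 to 0.21 for LARP7, -0.13 to 0.19 for MEPCE and -0.21 to 0.11 for AFF4. The replicate block gave -0.0949 for AFF4 in WX-02-23, -0.237 for LARP7 and -0.000995 for CDK9 after PladB in T>C reads, and -0.0166 for AFF4 between the stereoprobes in all reads. Scaling T>C reads by all reads gave -0.000702 for MEPCE and -0.0400 for CCNT1 in WX-02-43, and -0.755 for LARP7 and -0.281 for CDK9 after PladB. LARP7 after PladB was -0.0161 with RLE, -0.0173 with DESeq2 and -0.0273 with the 2 groups alone. The shorter CCNT1 interval, chosen after seeing the data, gave 0.00658 for CCNT1 in WX-02-23, and subtracting multimapping reads gave 0.0167 for CCNT2 there in all reads. Over all genes in T>C reads, PladB called 1140 in edgeR, 1979 in DESeq2, 495 with the 2 groups alone and 1835 scaled by all reads, 85 higher and 1750 lower against 507 and 633. WX-02-23 called 24 in T>C reads, 75 in DESeq2 and 13 by plain sums, WX-02-43 10, 53 in DESeq2 and 16 with no filter, and the stereoprobe pair 5, 26 in DESeq2, 8 with no filter and 2 by plain sums. In all reads WX-02-23 called 92, 161 in DESeq2, 140 with no filter, 56 with the 2 groups alone and 53 by plain sums. WX-02-43 called 22, 55 in DESeq2 and 36 with no filter, and the pair 20, 35 in DESeq2, 33 with no filter and 12 by plain sums. With a library left out, counts ran in T>C reads from 12 to 23 for WX-02-23 and from 1 to 3 for the pair, and in all reads from 41 to 86 for WX-02-23, 13 to 29 for WX-02-43 and 7 to 11 for the pair.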
